A study of Mus musculus with 8 samples.

Results

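Protein arginine methyltransferases (PRMTs) transfer methyl groups from S-adenosylmethionine to arginine side chains of histones, RNA-binding proteins and other targets. Type I enzymes make asymmetric dimethylarginine, type II enzymes make symmetric dimethylarginine, and the type III enzyme stops at monomethylarginine. PRMT5 is the main type II enzyme, and the enzymes of the family can share target sites. To ask whether other members are raised when Prmt5 is lost, the transcripts of 7 genes, Prmt1, Prmt2, Prmt3, Carm1, Prmt6, Prmt10 and Prmt7, were compared between Prmt5-null and control B cells. These 7 were taken by symbol from the 39017 genes of the deposited table, and all 7 were expressed and passed the filter of a mean of at least 10 normalized counts, which left 16250 genes to test. Prmt10 is the older symbol of Prmt9.

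Splenic B cells of C57BL6/J mice were grown for 4 days with 1 ng/mL IL-4 on 40LB cells, which are fibroblasts that express CD40L and BAFF, to give germinal centre-like B cells called iGBs. The Prmt5-null group carried floxed Prmt5 alleles and the Cγ1-cre transgene (mice PRMT5-10617, PRMT5-10618, PRMT5-10770 and PRMT5-10771). The control group carried Cγ1-cre too, and its labels name no floxed allele (mice CTRL-10650 and CTRL-10370, and mice CTRL-10596 and CTRL-10597). Cγ1-cre is switched on with activation of a B cell, so Prmt5 is deleted only once the culture begins, and cells that escape excision can stay in the culture. iGBs are a culture model that stands in for germinal centre B cells, and feeder cells were removed by elutriation, which separates cells by size. Each library held between 36731721 and 50366174 reads on genes, and B cell markers summed to 156628 to 184348 normalized counts in Prmt5-null and to 152596 to 175447 in control libraries. T cell markers summed to at most 19.0 normalized counts in any library, with Cd3e at 0 in all 8. The normalized count is the number of reads on a gene divided by a size factor for its library.

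The transcript of Prmt5 itself was far lower in all 4 Prmt5-null libraries. It stood at 1291, 1994, 1060.3 and 1808 normalized counts in mice PRMT5-10617, PRMT5-10618, PRMT5-10770 and PRMT5-10771. Among the controls, CTRL-10650 had 13087, CTRL-10370 had 11084, CTRL-10596 had 11657 and CTRL-10597 had 11267. These counts include RNA that lacks the excised exon of Prmt5. Over the 4 Prmt5-null libraries 164 reads included that exon and 241 skipped it, against 5566 and 8 in controls. The mean count fell by 86.9%, a log2 fold change of -2.98 (SE 0.17), and every library matched its genotype label. In bulk RNA, fewer cells with a transcript and less transcript per cell cannot be told apart, which holds for this value and for all that follow.

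None of the 7 other genes changed by 1.5-fold or more, and those that passed the test did not share a direction. Prmt10 and Prmt3 fell, Prmt6 rose, and Prmt1, Prmt2, Carm1 and Prmt7 did not pass an adjusted p of 0.05 (limma on log2(normalized count + 1), Benjamini-Hochberg adjustment over the 16250 genes). Passing the adjusted p alone were 3 of 7 genes, against 13.8% of all genes tested, with 1 higher where the background was 6.51% and 2 lower where it was 7.33%. With the additional requirement of at least a 1.5-fold change, 0 of 7 were called against 6.48% of all genes, of which 3.49% were higher and 2.99% lower, and the count was also 0 with edgeR and with DESeq2. An unadjusted p under 0.05 was found for 4 of 7, against 29.3%. The 7 log2 fold changes had a median of -0.09, beside 0.00 over all genes tested, and their median size without sign was 0.26, beside 0.19. For 6 of the 7 the 95% confidence interval of the change lay inside 1.5-fold in both directions, the exception being Prmt10.

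**Figure D1:**
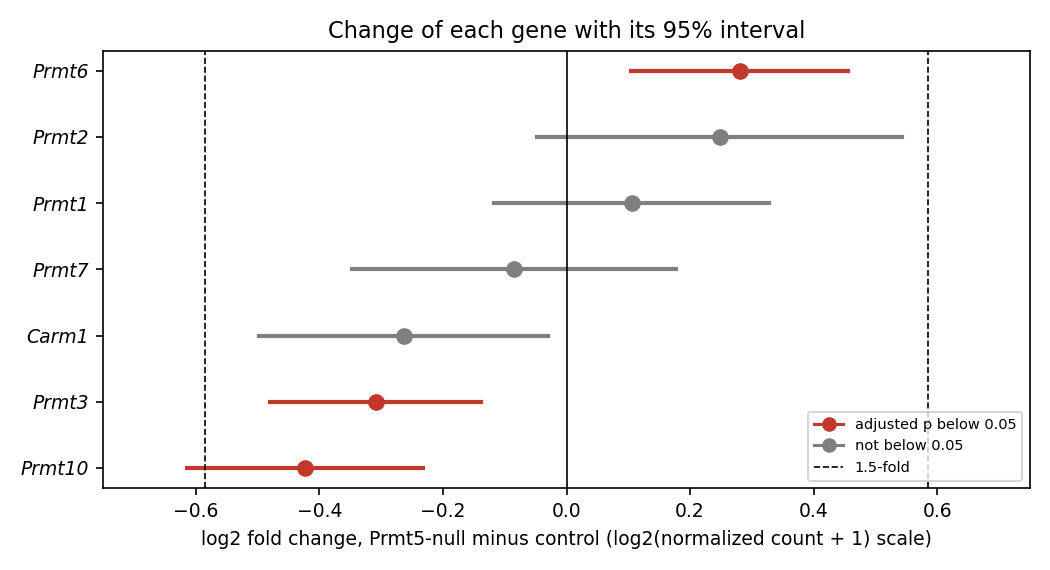
Log2 fold change of each of the 7 genes (Prmt5-null minus control, on the log2(normalized count + 1) scale, horizontal axis) with its 95% confidence interval from limma as a bar. Dashed lines mark 1.5-fold, red marks an adjusted p below 0.05, and the lower bound of Prmt10 at -0.62 is the single bound past a dashed line.

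Type I enzymes come first. Prmt1, which makes most of the asymmetric dimethylarginine in mammalian cells, had 4077, 3125, 4253 and 3740 normalized counts in the Prmt5-null mice PRMT5-10617, PRMT5-10618, PRMT5-10770 and PRMT5-10771. Its control values, in the order of mice given for Prmt5 and used throughout, were 3860, 3472, 3166 and 3567. The groups overlapped, with 2 Prmt5-null libraries above every control and 1 below every control. The means of 3799 ± 497 and 3516 ± 286 (SD, n = 4 each) gave a 1.08-fold change with a 95% interval of 0.922 to 1.26 (limma, adjusted p = 0.535). An increase in Prmt1 of more than 1.26-fold thus lay outside the interval of these libraries. The gene is annotated at chr7:44975989-44986568 of GRCm38 on the minus strand. The table lists it under an Ensembl identifier, ENSMUSG00000052429, that the annotation used here does not hold, so its position and length were matched by symbol.

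Prmt3 is a cytosolic type I enzyme with a zinc finger, known for methylating the ribosomal protein RPS2. It fell to 2331, 2081, 2588 and 2334 normalized counts in the 4 Prmt5-null libraries. The control libraries had 2923, 2858, 2905 and 2845, a tight range with a coefficient of variation of 1.29%. All 4 Prmt5-null libraries lay below all 4 controls. The mean dropped by 19.1%, from 2883 ± 37.1 to 2334 ± 207 (SD, n = 4 each), and the log2 fold change was -0.31 (SE 0.08, limma adjusted p = 0.0221). The exact permutation test over the libraries gave a two-sided p of 0.0286, the smallest possible with 4 against 4. The call missed the threshold without Prmt5-null library PRMT5-10617 (adjusted p = 0.0512), without PRMT5-10771 (0.0620), without control library CTRL-10650 (0.0560), without CTRL-10596 (0.0593) and without limma's intensity trend (0.0502), within a range of 0.00373 to 0.0620 over all alternatives. ENSMUSG00000030505 spans chr7:49778346-49858265 on the plus strand.

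Carm1, the type I coactivator also called PRMT4 that methylates histone H3 and other transcriptional coactivators, had 2508, 2025, 1797 and 2098 normalized counts in Prmt5-null libraries. Control libraries had 2672, 2297, 2338 and 2775. Library PRMT5-10617 lay within the control range and the other 3 Prmt5-null libraries below it. The means of 2107 ± 296 and 2521 ± 239 (SD, n = 4 each) differed by a log2 fold change of -0.26 (SE 0.11, limma adjusted p = 0.126). Without library PRMT5-10617 the value was -0.35 with an adjusted p of 0.0488, in a range of 0.0488 to 0.275 over the alternatives. Of the exonic bases of Carm1 (ENSMUSG00000032185, chr9:21546894-21592623, plus strand), 21.1% are shared with Yipf2 on the opposite strand. Yipf2 had 694 ± 77.6 and 801 ± 148 normalized counts (SD, n = 4 each, log2 fold change -0.20, limma adjusted p = 0.363), and its part in the Carm1 value was not tested.

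Prmt6, a nuclear type I enzyme that methylates the tail of histone H3, was the one gene of the 7 that was higher and passed the adjusted p. It reached 1704, 1772, 1941 and 1581 normalized counts in Prmt5-null libraries. The controls lay close together at 1409.9, 1441, 1449 and 1447. Every Prmt5-null library was above every control. The mean went from 1437 ± 18.1 to 1750 ± 150 (SD, n = 4 each), a 1.21-fold change with a 95% interval of 1.07 to 1.37 (limma, adjusted p = 0.0392, exact permutation p = 0.0286). The call held without PRMT5-10771 (adjusted p = 0.0406) and missed the threshold without PRMT5-10617 (0.0687), PRMT5-10618 (0.0690), PRMT5-10770 (0.0649), CTRL-10650 (0.0875), CTRL-10370 (0.0782), CTRL-10596 (0.0820) or CTRL-10597 (0.0805). It also missed it without the trend (adjusted p = 0.0641) and with all genes above 0 tested (0.0560), in a range of 0.00912 to 0.0875 over all alternatives. Of the exonic length of Prmt6 (ENSMUSG00000049300, chr3:110246109-110250998, minus strand), 23.4% is shared with C130013H08Rik on the opposite strand. No single entry was found under that symbol, so C130013H08Rik has no values here and its part in the Prmt6 value was not tested.

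Prmt2 had the lowest level of the 7 genes per kb of exon. It is a type I enzyme with an SH3 domain and weak activity on known substrates. Its normalized counts were 308, 294, 328 and 338 in Prmt5-null libraries. Among controls, CTRL-10370 stood at 337 and the other 3 at 236, 263 and 242. The control spread therefore reached nearly the highest Prmt5-null value, and the groups overlapped. The means were 317 ± 19.7 and 269 ± 46.6 (SD, n = 4 each), a log2 fold change of 0.25 (SE 0.14, limma adjusted p = 0.250) with a 95% interval of -0.05 to 0.54. The gene, ENSMUSG00000020230, is at chr10:76207222-76237865 on the minus strand.

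Of the genes outside type I, Prmt10 had the largest change. Its product, PRMT9, is the second enzyme known to make symmetric dimethylarginine, and its best known substrate is the splicing factor SF3B2. Prmt10 fell to 724, 749, 847 and 773 normalized counts in Prmt5-null libraries. Controls had 1056, 1016, 1106 and 969. No Prmt5-null library reached the lowest control. The mean dropped by 25.4%, from 1037 ± 58.2 to 773 ± 53.1 (SD, n = 4 each), with a log2 fold change of -0.42 (SE 0.09, 95% interval -0.62 to -0.23, limma adjusted p = 0.00798, exact permutation p = 0.0286). This call held under all 18 alternatives, with adjusted p between 9.55e-05 and 0.0311. ENSMUSG00000037134 spans chr8:77549397-77581338 on the plus strand.

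Prmt7, the type III enzyme, had 3294, 2782, 4368 and 3188 normalized counts in Prmt5-null libraries and thus the widest relative spread of the 7 in that genotype, a coefficient of variation of 19.9%. Its control values were 3814, 3724, 3440.3 and 3306. Mouse PRMT5-10770 was above every control and the other 3 Prmt5-null mice were below. The means of 3408 ± 677 and 3571 ± 238 (SD, n = 4 each) differed by a log2 fold change of -0.09 (95% interval -0.35 to 0.18, limma adjusted p = 0.685). The sign of the difference turned to 0.01 (adjusted p = 0.979, range 0.118 to 0.979) without library PRMT5-10618. Prmt7 (ENSMUSG00000060098, chr8:106210936-106252794, plus strand) shares 4.03% of its exonic length with Smpd3 on the other strand, which rose from 51.7 ± 9.15 to 121 ± 11.6 normalized counts (SD, n = 4 each, log2 fold change 1.23, limma adjusted p = 0.00136).

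**Figure D2:**
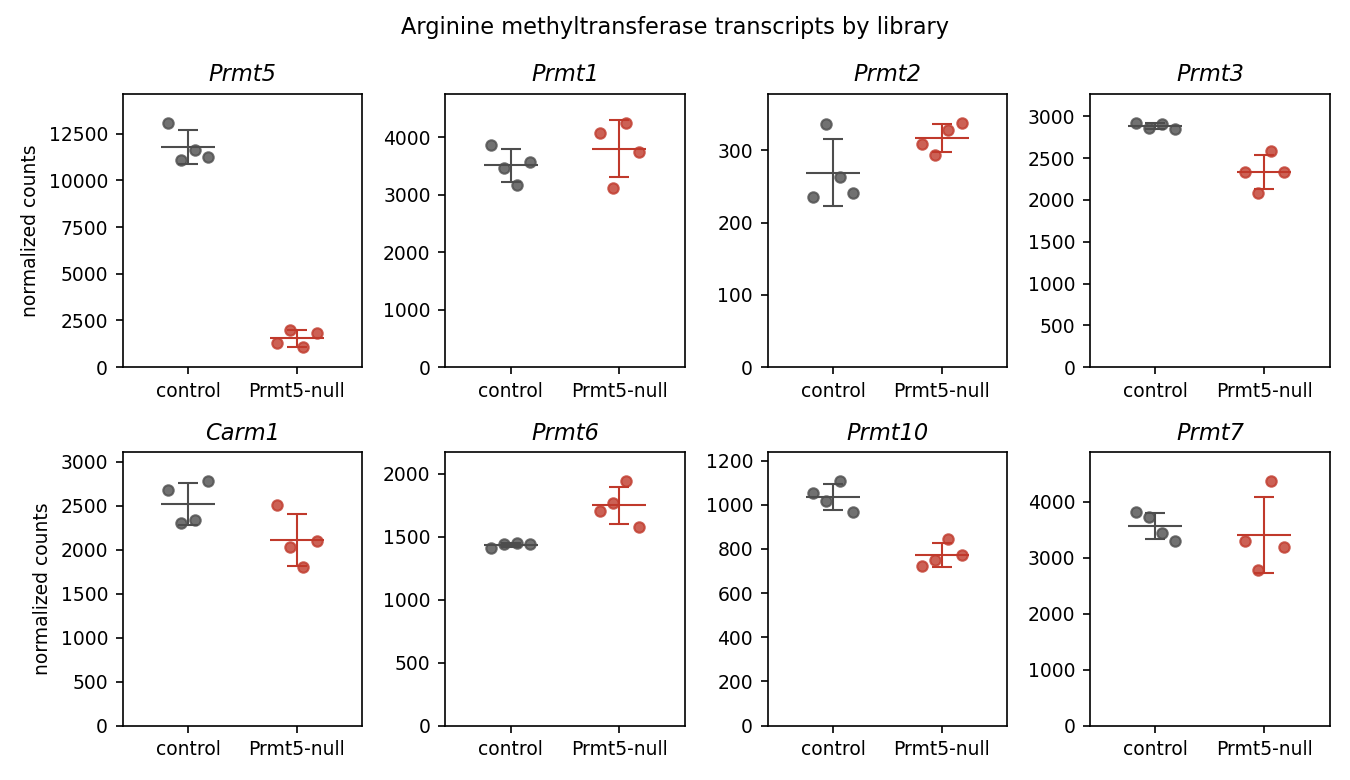
Normalized counts of Prmt5 and the 7 other genes in each library (points, vertical axes from 0), with the mean as a horizontal line and the SD as a bar, for 4 control and 4 Prmt5-null mice. The groups are apart for Prmt5, Prmt3, Prmt6 and Prmt10 and overlap for Prmt1, Prmt2, Carm1 and Prmt7.

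Groups did not overlap for 3 of the 7 genes, against 19.8% of all genes tested, with 1 gene higher where the background was 9.67% and 2 lower where it was 10.2%. Other measures moved with genotype beside these genes. The marker counts that follow stand beside 13.8% of all genes tested that passed the adjusted p, 6.51% higher and 7.33% lower. Transcripts of fibroblasts, the type of the feeder cells, were more abundant in Prmt5-null libraries, where all 8 tested markers had a log2 fold change above 0 and 3 of 8 passed the adjusted p. These were Col3a1 at 1.02, which passed under every alternative, Sparc at 0.83 (limma adjusted p = 0.0368, at most 0.104 over the alternatives) and Col1a2 at 0.72 (0.0213, at most 0.0694), while Lum and Postn were under the filter. The summed fibroblast markers were 9453, 5402, 8017 and 6857 normalized counts in mice PRMT5-10617, PRMT5-10618, PRMT5-10770 and PRMT5-10771 and 6073, 3409, 4162 and 4863 in the controls, so that library PRMT5-10618 lay within the control range. Myeloid markers summed to 171 to 295 in Prmt5-null and 104 to 215 in control libraries, and 1 of 3 tested, Emr1, passed with a log2 fold change of 0.70 (limma adjusted p = 0.0424, at most 0.103 over the alternatives). Plasma cell markers summed to 23630 to 31162 and to 29919 to 45643, and 2 of 4 passed, Prdm1 at -0.48 (0.0428, at most 0.123) and Xbp1 at -0.45 (0.0305, at most 0.0906). The markers that did not pass were Igj at -0.57 (limma adjusted p = 0.0764) and Sdc1, which went the other way at 0.16 (0.588). Most of the sum was Xbp1, with means of 18185 in Prmt5-null and 24936 in control libraries. Of 7 B cell markers, Fas passed at 0.47 and Cd79a at -0.74, under every alternative. The part of these transcripts in the values of the 7 genes was not tested.

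Libraries also spread along the second principal component, which held 25.8% of the variance. Split by the sign of their score, which left no clear gap (PRMT5-10771 at -3.02 and CTRL-10596 at 5.58 lay next to 0 in a range of -28.7 to 37.7), they fell into PRMT5-10617, PRMT5-10618, CTRL-10596 and CTRL-10597 on one side and PRMT5-10770, PRMT5-10771, CTRL-10650 and CTRL-10370 on the other. No label ties a library to an experiment. Within the 2 sides, the log2 fold change was -0.49 and -0.36 for Prmt10, -0.38 and -0.23 for Prmt3 and 0.26 and 0.30 for Prmt6. Prmt1 had 0.09 and 0.12, Prmt2 0.26 and 0.24, Carm1 -0.18 and -0.35 and Prmt7 -0.16 and -0.01. Each of the 7 genes had the same sign on both sides, and with the side as a block Prmt10, Prmt3 and Prmt6 passed (limma, adjusted p = 0.00654, 0.0169 and 0.0371). The sides were drawn from these same expression values. Neither the shared signs nor the block fit is therefore independent evidence for the changes.

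To compare levels between genes, normalized counts were divided by the length of the annotated exons. In control iGBs Prmt1 was the highest of the 7 at 1027 ± 83.5 normalized counts per kb (SD, n = 4), 1.76 times the level of Prmt7 at 583 ± 38.8 per kb. Carm1 followed at 519 ± 49.2 and Prmt3 at 481 ± 6.18 per kb. The ranges of Prmt7 and Carm1 overlapped, as did those of Carm1 and Prmt3, so these neighbours were not separated in this order. Prmt6 had 342 ± 4.31, Prmt10 183 ± 10.3 and Prmt2 79.6 ± 13.8 per kb, each range apart from the next. This order depends on the length used, since without division by length Prmt7 (3571 normalized counts) stood above Prmt1 (3516), and per kb of the longest coding transcript Prmt3 (1149.9) stood above Prmt7 (1029), with Prmt1 (1638) the highest. In Prmt5-null iGBs Prmt6 at 417 ± 35.8 per kb stood above Prmt3 at 389 ± 34.6, with overlapping ranges, and the remaining order was that of the controls. Prmt3 was above Prmt6 in Prmt5-null iGBs by the other lengths, at 931 and 573 per kb of the longest coding transcript and at 2334 and 1750 normalized counts without division. Prmt1 then had 1109 ± 145, Prmt7 556 ± 111, Carm1 434 ± 61.1, Prmt10 136 ± 9.35 and Prmt2 93.8 ± 5.84 per kb.

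Summed over the 7 genes, the mean level per kb differed between the genotypes by less than the SD within either, while that of Prmt5 fell. The sum was 3259, 2772, 3466 and 3047 normalized counts per kb in Prmt5-null mice and 3380, 3194, 3070 and 3215 in controls, and the ranges overlapped. The means were 3136 ± 297 and 3214 ± 127 per kb (SD, n = 4 each), a ratio of 0.976. The 5 type I genes alone summed to 2443 ± 198 and 2449 ± 113 per kb. Prmt5 dropped by 2586 per kb, from 2975 ± 229 to 389 ± 110, and its share of the 8 transcripts went from 48.0% ± 1.38 to 11.2% ± 3.72 (SD, n = 4 each). The level and the share that remained in Prmt5-null libraries count RNA without the excised exon as Prmt5. Of 405 Prmt5-null reads at that exon, 241 skipped it, so intact Prmt5 transcript was lower than these values. The difference in Prmt6, 74.6 per kb, came to 2.88% of the loss of Prmt5, and that in Prmt1, 82.5 per kb, to 3.19%. Prmt2 came to 0.547%. Downward differences came to -3.54% for Prmt3, -3.29% for Carm1, -1.80% for Prmt10 and -1.03% for Prmt7. The sum of the 7 came to -3.04%.

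**Figure D3:**
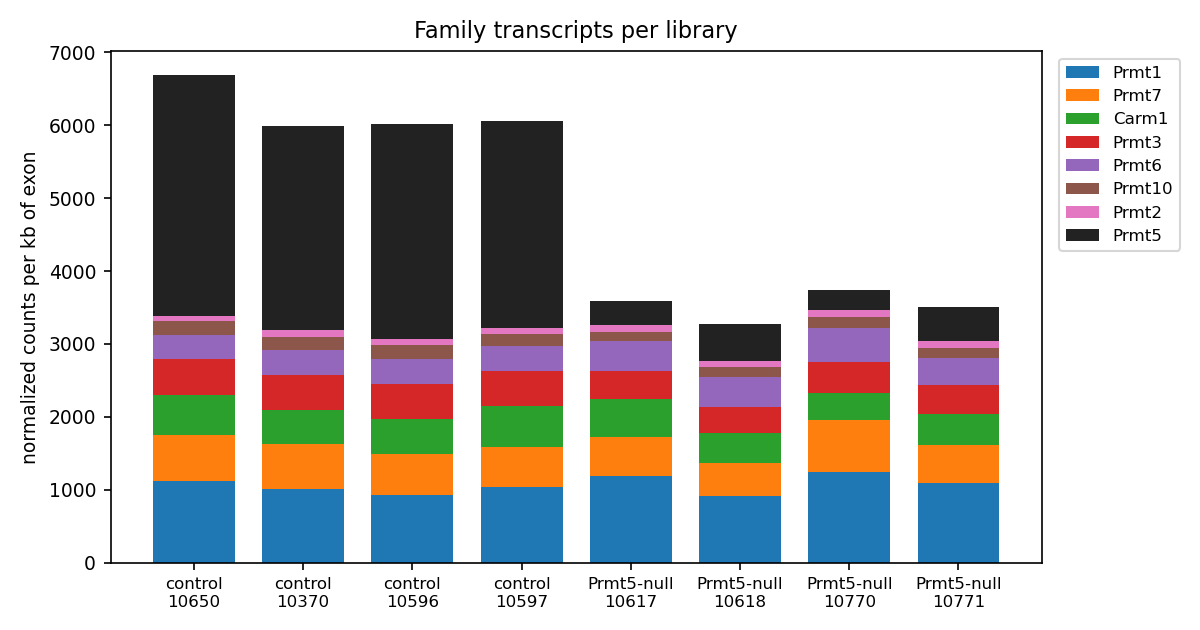
Normalized counts per kb of exon of Prmt5 (black) and the 7 other genes (colours), stacked for each of the 8 libraries named by genotype and mouse. The coloured part reaches 3070 to 3380 in controls and 2772 to 3466 in Prmt5-null libraries, and the black part shrinks from 2975 ± 229 to 389 ± 110 on average.

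The deposited splicing lists hold, per gene, events that rMATS found to differ between the genotypes, as skipped exons, mutually exclusive exons, alternative 5′ and 3′ splice sites and retained introns. Of the 7 genes only Prmt3 had an entry, a skipped exon, and the other 6 had none in any of the 5 lists. By the paper's methods, only the most significant event per gene was kept, past a minimum inclusion difference and an expression cut. A gene without an entry can therefore still have smaller splicing changes. An entry of any kind was found for 11.4% of genes with a mean above 50 normalized counts, and a skipped exon for 6.86%. The listed exon of Prmt3 lies at chr7:49806527-49806626 (GRCm38, plus strand), is 100 bases long and is exon 10 of the 16 exons of the Prmt3 transcript used, all of it coding. The entry names exon 8 (chr7:49791973-49792038) as its upstream and exon 11 (chr7:49818032-49818110) as its downstream neighbour, although exon 9 (chr7:49798306-49798427) lies between. A skipping read, joining exon 8 to exon 11, therefore lacks exons 9 and 10 together, a stretch of 222 bases or 74 codons.

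Both exons are shown because they hold conserved motifs of the methyltransferase fold, read from the GENCODE M21 transcript sequences of GRCm38, 5′ to 3′ on the strand of the gene. Capitals in exon 9 mark the 24 bases that encode the glycine-rich motif that contacts S-adenosylmethionine, codons 257 to 264 of 528. Capitals in exon 10 mark 12 of the 15 bases that encode the start of the double-E loop, which binds the target arginine, codons 325 to 329. The last line gives 20 bases on either side of the junction that skipping creates.
Prmt3 exon 9: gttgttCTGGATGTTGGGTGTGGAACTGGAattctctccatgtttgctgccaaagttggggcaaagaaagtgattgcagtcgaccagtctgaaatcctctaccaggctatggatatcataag
Prmt3 exon 10: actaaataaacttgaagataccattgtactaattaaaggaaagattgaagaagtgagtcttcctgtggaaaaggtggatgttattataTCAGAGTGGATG
exon 8 joined to exon 11: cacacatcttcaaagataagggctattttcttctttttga

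The glycine-rich motif was searched as codons in the longest coding sequence of each gene and was found in all 7 methyltransferases and in 57 of 21866 protein-coding genes (0.261%). The start of the double-E loop was found in the 5 type I genes, Prmt1, Prmt2, Prmt3, Carm1 and Prmt6, and in 59 genes in all (0.270%). None of the 9 annotated Prmt3 transcripts joins exon 8 to exon 11, and none joins exon 8 to exon 10, while 3 join exon 10 to exon 11.

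Inclusion of Prmt3 exon 10 was lower in Prmt5-null iGBs, though most reads still included it in every library. The authors' inclusion levels are an estimate of the fraction of transcripts with the exon, not the plain share of reads. They were 0.912, 0.945, 0.957 and 0.969 in controls and 0.775, 0.797, 0.868 and 0.894 in Prmt5-null libraries, which the lists do not name. The 2 sets of 4 did not overlap, and their means were 0.946 and 0.834. Over the 4 control libraries 362 reads included and 11 skipped the exon, and over the 4 Prmt5-null libraries 252 included and 28 skipped it. Skipping thus rested on 2 to 4 reads in a control library and on 4 to 9 in a Prmt5-null library, of 373 and 280 reads over the groups. Because the entry was listed for its difference, no test was made. Inclusion reads cover the junction of exons 10 and 11, which transcripts with exon 9 share. Against the 913 skipped exons listed, the difference of 0.112 was small, since 157 (17.2%) had a smaller one and the median was 0.163, and the event had 653 reads where the median was 381. This ranking holds among listed events only, which had all passed the paper's minimum difference.

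**Figure D4:**
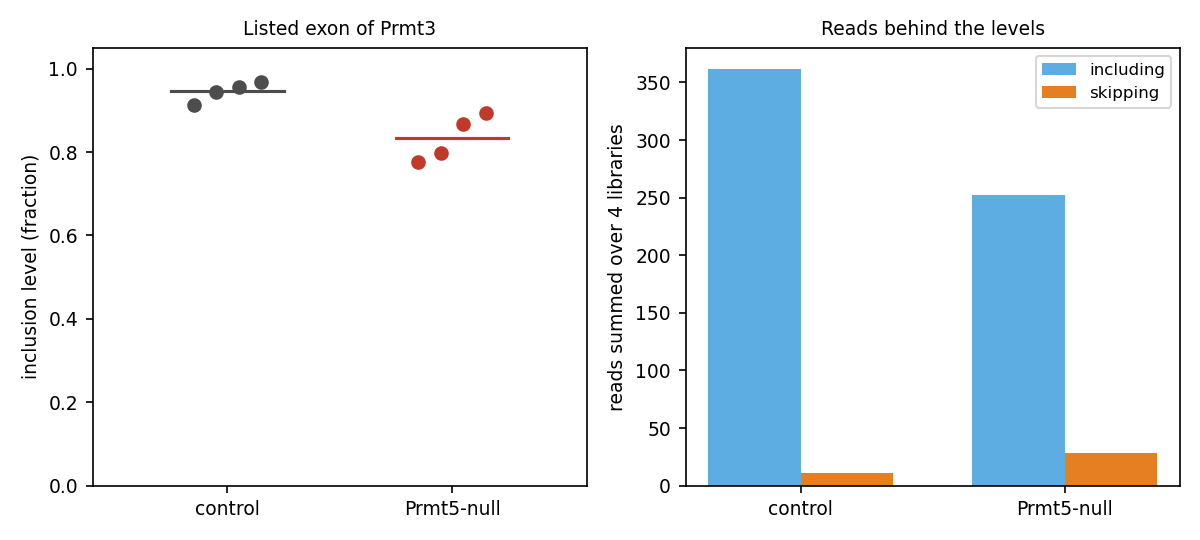
Left, inclusion level (fraction, 0 to 1) of the listed Prmt3 exon in the 4 control and 4 Prmt5-null libraries as the authors deposited it, with points sorted by value and the mean as a line. Right, reads that include or skip the exon summed over the 4 libraries of each genotype, 362 and 11 in control and 252 and 28 in Prmt5-null.

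The wider set of genes around arginine methylation was described by lists, each with its count of genes past an adjusted p of 0.05 (limma) and its median log2 fold change, beside a median of 0.00 over all genes. In all, 7 of 46 listed genes passed, a share near the 13.8% of all genes tested. Other genes for arginine methyltransferases gave 0 of 2 tested, with Mettl23 at -0.05 and Ndufaf7 at -0.13, and Prmt8 stayed under 3 counts in every library. Partners that bind PRMT1, such as Btg2 and Chtop, gave 0 of 5 with a median of -0.06. Enzymes that degrade or edit methylarginine or arginine gave 0 of 6 with a median of 0.18. Of the cofactors of PRMT5, 1 of 4 was lower, Wdr77, the partner in the PRMT5 methylosome, which fell from 5476 ± 319 to 4511 ± 92.5 normalized counts (SD, n = 4 each, log2 fold change -0.28, adjusted p = 0.0188). Without PRMT5-10771 or CTRL-10597 its adjusted p was 0.0650 and 0.0612, in a range of 0.00143 to 0.0650.

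Of 6 tested genes for Tudor domain proteins, which read methylated arginine, 1 was higher, 2 were lower and 3 did not pass, beside 6.51% higher and 7.33% lower among all genes, and their median was 0.04. Smndc1, a spliceosome factor, rose from 2342 ± 292 to 3265 ± 384 normalized counts (SD, n = 4 each, log2 fold change 0.48, limma adjusted p = 0.0123). Snd1, a nuclease and coactivator, fell from 16406 ± 1171 to 12710 ± 632 (log2 fold change -0.37, limma adjusted p = 0.00798). Tdrkh, a protein of the germ line small RNA pathway, was low throughout and fell from 35.5 ± 7.89 to 15.7 ± 2.21 normalized counts (log2 fold change -1.11, limma adjusted p = 0.0182). The call on Tdrkh missed the threshold without PRMT5-10771 (adjusted p = 0.0513), CTRL-10650 (0.0573) or CTRL-10597 (0.0506) and with all genes above 0 tested (0.0534), in a range of 0.00692 to 0.0573.

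Known substrates of the other enzymes were compared next. Of 13 substrates of PRMT1, 2 were lower and 0 higher, beside 7.33% and 6.51% of all genes, with a median of -0.04. Cd79a, a chain of the B cell receptor, fell from 13526 ± 923 to 8114 ± 831 normalized counts (log2 fold change -0.74, limma adjusted p = 0.000327), and Taf15, an RNA-binding protein, fell from 1315 ± 167 to 718 ± 85.8 (-0.87, adjusted p = 0.000624). Of 7 substrates of CARM1 only Med12, a Mediator subunit, passed, from 4671 ± 346 to 3288 ± 583 (-0.52, adjusted p = 0.0123), and the median was -0.13. The 3 substrates of PRMT3, PRMT7 and PRMT9 gave 0 of 3, including Rps2 at a log2 fold change of 0.17 and Sf3b2 at 0.18 (limma adjusted p = 0.105, 0.0291 with DESeq2 and at most 0.219 over the alternatives). These are transcript levels, and methylation of the proteins was not measured in these libraries.

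**Figure D5:**
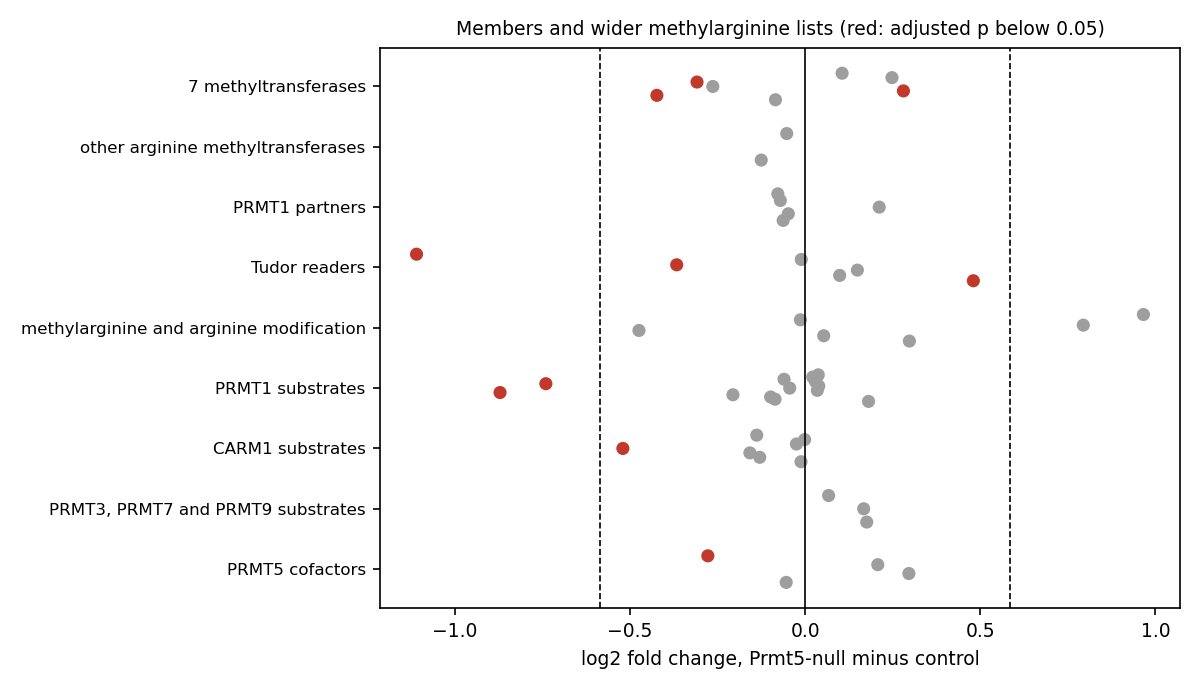
Log2 fold change (Prmt5-null minus control, horizontal axis) of each tested gene of the 7 methyltransferases and of the lists around them (rows), red for an adjusted p below 0.05, dashed lines at 1.5-fold. The 7 methyltransferases span -0.42 to 0.28, and the red points past a dashed line are Tdrkh, Taf15 and Cd79a.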

How the data were processed

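RNA-seq of day 4 iGBs gave 4 Prmt5-null and 4 control libraries, which the labels call independent biological samples. Genotype came from the labels. The authors depleted ribosomal RNA, made libraries with a stranded kit, trimmed reads with Trimmomatic 0.32, aligned them to GRCm38 with STAR 2.3.0e and counted them on Ensembl genes with featureCounts 1.4.4. They deposited counts divided by DESeq2 1.14.1 size factors, a normalized signal. The strand setting of the counting is not given in the sources used here, so reads on overlapping genes of opposite strands are uncertain, as are reads shared with near-identical copies. The authors' rMATS lists were deposited with inclusion levels as fractions and read counts per library, without library names. Their p-values, FDR values and differences were not used. Group 1 of the lists was read as the control, because the study gives differences as wild type against knockout, and the excised exon of Prmt5 had inclusion levels of 0.989 to 1 in group 1 and 0.0270 to 0.304 in group 2.

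All deposited values (100%) were whole multiples of 1 read per library within 0.01, giving 36731721 to 50366174 reads on genes. Genotypes were compared on log2(normalized count + 1) with limma 3.58.1 and its intensity trend (R 4.3.3), a scale that understates changes of low genes, over 16250 genes with a mean of at least 10. Limma p-values set the difference of means against a variance between libraries that is moderated over genes. An exact permutation p over 4 against 4 cannot go below 0.0286. Called genes had an adjusted p under 0.05 with a change of 1.5-fold or more. Lengths, positions and sequences came from GENCODE M21, and other calculations were made in Python 3.11.15. The fits were tested on simulated data. Alternatives changed the pseudocount, filter, normalization, trend, tool (edgeR 4.0.16 and DESeq2 1.42.0 on recovered reads), thresholds, libraries and gene length, or added the side of the second component as a block. Gene length from the longest coding transcript, junction reads alone and the alternatives for listed genes were chosen after seeing the data.

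The 7 genes and the lists were chosen with earlier results of these data known. Named genes were the 7, Prmt5, Prmt8, the genes of the lists past an adjusted p of 0.05 (at most 5 per list), and 3 genes with the highest Pearson r to the risen and to the fallen gene of smallest adjusted p. Yipf2, Smpd3, Mettl23, Ndufaf7, Btg2, Chtop, Rps2, Sf3b2, Cd3e, Lum and Postn fall outside this rule and were named after their values were seen. C130013H08Rik also falls outside it, was named for its overlap with Prmt6 and has no values here. Substrate, partner and marker lists were written from general knowledge.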

Additional observations from a re-analysis of the deposited data

How the results depend on the processing

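Over 18 alternatives each, Prmt1, Prmt2, Prmt10 and Prmt5 kept their direction and their side of an adjusted p of 0.05 (limma, or edgeR and DESeq2 where run). Prmt3 stayed under an adjusted p of 0.05 in 13 of 18 alternatives and Prmt6 in 9 of 18. Prmt3 missed it without the intensity trend (log2 fold change -0.31), and Prmt6 without the trend and with all genes above 0 tested (0.28 in both). All their other misses came with 1 library left out. The cause of these misses was not tested. Carm1 stayed above it in 17 of 18, passing only without PRMT5-10617 (limma adjusted p = 0.0488). With 1 library left out, the log2 fold change ran from 0.05 to 0.20 for Prmt1, from 0.19 to 0.36 for Prmt2, from -0.36 to -0.26 for Prmt3, from -0.35 to -0.19 for Carm1, from 0.23 to 0.33 for Prmt6, from -0.47 to -0.39 for Prmt10, from -0.21 to 0.01 for Prmt7, where the sign turned without PRMT5-10618 (0.0059), and from -3.12 to -2.81 for Prmt5. The count of the 7 genes called was 0 throughout except with no fold threshold, where it was 3. Over all genes, 1053 were called, 792 to 1170 with 1 library left out, 637 at an adjusted p below 0.01, 2249 with no fold threshold and 396 at 2-fold. Of 46 genes tested in the lists around arginine methylation, 7 passed, beside 13.8% of all genes tested (5 to 8 over the alternatives, 5 to 7 with 1 library left out). The log2 fold change of Mettl23 ran from -0.16 to 0.016 with 1 library left out, the sign turning without PRMT5-10617. Without division by length 3 of the 7 genes kept their rank among control levels, with Prmt7 above Prmt1, and with the longest coding transcript as the length 4 did, with Prmt3 above Prmt7. The ratio of the summed levels was 0.951 without division by length, and the Prmt3 difference with junction reads alone was 0.112. No paired analysis was possible because no label ties a library to an experiment or to a partner of the other genotype. The skipping side of the Prmt3 event rests on 11 and 28 reads in the 2 genotypes, and Tdrkh had 35.5 and 15.7 normalized counts on average, so counting error is larger for both than for the 7 genes.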

Other observations

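The 3 genes whose log2 values followed Prmt10 most closely over the 8 libraries, among 13300 genes with a mean above 50, were Calr (Pearson r = 0.991), Pdia6 (0.989) and Pgm3 (0.988), given as a description with no p. Calr and Pdia6 encode a chaperone and a disulfide isomerase of the endoplasmic reticulum, and Pgm3 encodes an enzyme of nucleotide sugar synthesis. Their log2 fold changes were -0.47 for Calr, -0.67 for Pdia6 and -0.34 for Pgm3, beside -0.42 for Prmt10. For Prmt6 the 3 closest were Zfp955a (r = 0.970), Coq6 (0.965) and Tbcd (0.965), with log2 fold changes of 0.30, 0.64 and 0.30 beside 0.28 for Prmt6. Part of each r comes from the difference between the genotypes that both genes share, and the points share their libraries and size factors.

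Within the Prmt5-null group, library PRMT5-10770 had the lowest Prmt5 (1060.3 normalized counts) and the highest Prmt1, Prmt3, Prmt6, Prmt7 and Prmt10 of the 4, together with the lowest Carm1. Library PRMT5-10618 had the highest Prmt5 (1994) and the lowest Prmt1, Prmt2, Prmt3 and Prmt7. Its Prmt6 (1772), however, was above that of PRMT5-10617 (1704) and PRMT5-10771 (1581). PRMT5-10770 and PRMT5-10618 also had the extreme scores of all 8 libraries on the second principal component, -28.7 and 37.7, so they differed across many genes. With 4 libraries no relation across libraries was tested, and these values were read after the data were seen.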
